A study of Mus musculus with 22 samples.

Results

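The 42 cell cycle and proliferation genes described here are a fixed list of symbols that covers the mitotic cyclins and their kinase, the mitotic kinases, the kinetochore and spindle genes, chromosome structure and DNA replication. They were looked up by symbol in both tables of raw unique molecular identifier (UMI) counts. All 42 were rows among the 20668 genes of the single-nucleus RNA-seq (snRNA-seq) table, and 41 were rows among the 16304 genes of the whole-cell single-cell RNA-seq (scRNA-seq) table. Bub1 was not analysed in whole cells.

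Hypothalami came from male ob/ob mice, which lack leptin, at 11 weeks of age. Each mouse had received a single intracerebroventricular (icv) injection of 3 µg FGF1 or of vehicle, and food of the vehicle mice was matched by pair-feeding (PF) to what FGF1 mice ate. Nuclei were collected from 3 FGF1 and 3 vehicle mice on Day 1 and from 2 FGF1 and 2 vehicle mice on Day 5, and whole cells from 6 FGF1 and 6 vehicle mice on Day 5. Each sample is the hypothalamus of 1 mouse, and each batch number in the deposited annotation held 1 FGF1 and 1 vehicle mouse.

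A cell that divides copies its DNA in S phase with the MCM helicase, the PCNA clamp and the enzymes that make nucleotides, and then condenses and separates its chromosomes under the control of CDK1 with its A- and B-type cyclins. The mitotic genes are kept silent in resting cells by repressor complexes at their promoters and are transcribed together as a cell approaches mitosis, so their RNA marks dividing cells, whereas several replication genes keep a basal level in resting cells. In the adult brain most neurons, mature oligodendrocytes and ependymal cells do not divide. Oligodendrocyte precursor cells (OPCs), the NG2 glia that give rise to oligodendrocytes, are the main dividing cells of the parenchyma, microglia renew themselves slowly, and tanycytes of the third ventricle keep some capacity to divide.

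Promoter sequences of 4 members are shown because mitotic genes and replication genes are told apart throughout the results, and the promoters of these 2 kinds of gene held some of the letters described next in different shares, a difference that was not tested. They are RefSeq promoters of mouse build GRCm38.p6, each holding 250 bases before and 50 bases after a start site, written 5′ to 3′ along the gene. Capitals mark the cell cycle homology region (CHR, letters TTTGAA), the CCAAT box (letters CCAAT) and the E2F site (letters GCGGGAA), searched on both strands, with overlapping matches counted separately. The first 3 are mitotic genes, namely Ube2c (chr2:164769679-164769978, plus strand), Top2a (chr11:99024140-99024439, minus strand) and Prc1 (chr7:80294201-80294500, plus strand), and the fourth is the replication gene Mcm7 (chr5:138171834-138172133, minus strand).
Ube2c: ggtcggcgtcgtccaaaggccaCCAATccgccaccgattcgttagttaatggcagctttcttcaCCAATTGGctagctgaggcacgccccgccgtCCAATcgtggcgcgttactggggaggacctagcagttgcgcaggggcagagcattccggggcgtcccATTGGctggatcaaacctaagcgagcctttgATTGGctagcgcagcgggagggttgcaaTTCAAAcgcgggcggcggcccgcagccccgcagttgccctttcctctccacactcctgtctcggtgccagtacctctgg
Top2a: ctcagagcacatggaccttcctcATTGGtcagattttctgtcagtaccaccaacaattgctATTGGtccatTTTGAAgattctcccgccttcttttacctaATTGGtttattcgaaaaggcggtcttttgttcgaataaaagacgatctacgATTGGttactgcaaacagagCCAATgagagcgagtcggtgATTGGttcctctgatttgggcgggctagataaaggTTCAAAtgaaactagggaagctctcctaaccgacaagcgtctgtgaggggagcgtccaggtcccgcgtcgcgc
Prc1: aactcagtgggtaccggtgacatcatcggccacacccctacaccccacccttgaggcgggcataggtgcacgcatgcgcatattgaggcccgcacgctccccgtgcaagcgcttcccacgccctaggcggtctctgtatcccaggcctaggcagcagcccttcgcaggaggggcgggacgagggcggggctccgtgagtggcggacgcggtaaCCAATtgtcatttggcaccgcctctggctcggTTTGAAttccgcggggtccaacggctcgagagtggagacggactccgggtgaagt
Mcm7: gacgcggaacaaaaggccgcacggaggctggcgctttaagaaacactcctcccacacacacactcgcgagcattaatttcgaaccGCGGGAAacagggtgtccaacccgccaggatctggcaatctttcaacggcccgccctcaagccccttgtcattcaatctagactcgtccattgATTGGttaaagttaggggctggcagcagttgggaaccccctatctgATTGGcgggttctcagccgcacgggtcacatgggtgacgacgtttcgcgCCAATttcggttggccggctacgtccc

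A promoter was given for 36 of the 42 members, 38 promoters in all (Ccna2, Ccne2, Aurkb, Tpx2, Smc4 and Mcm4 had no entry). The CHR letters occurred in 22 of these 38 promoters (57.9%) and in 17.9% of all 32851 mouse promoters of the same length. CCAAT occurred in 32 of 38 (84.2%), against 37.4% of all promoters. The E2F letters occurred in 5 of 38 (13.2%), against 4.60% of all. All 5 were promoters of replication genes (Mcm3, Rrm1, Hells and a pair at Mcm7), where 5 of 11 promoters held the site and 1 of 11, that of Mcm2, held the CHR letters. Among the cyclin group the CHR letters were in 4 of 6 promoters, among the mitotic kinases and passengers in 5 of 7, among the kinetochore and spindle genes in 8 of 10 and among the chromosome structure genes in 4 of 4. CCAAT was found in 9 of 11 promoters of replication genes (81.8%) and in 80 to 100% of those of the other groups. A match of letters is a description and was not tested as a binding site.

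The snRNA-seq table held 24965 nuclei with a median of 2705 UMIs, and the scRNA-seq table held 54890 cells with a median of 1291 UMIs. UMI totals per mouse ran from 2721087 to 16345981 in nuclei and from 2652897 to 11866269 in whole cells. The same barcode sequence was found in at least 2 libraries for 318 sequences of the nuclei and 1791 of the whole cells. Nuclei carry the deposited cell type labels, of which the label COP is called OPC/COP here because its nuclei carried the markers of both stages (1823 CPM, or counts per 1000000 UMIs, for the OPC list and 752 for the COP list). The 5 neuron markers summed to 7209 CPM in these nuclei, 9004 in microglia, 9005 in oligodendrocytes, 2475 in astrocytes and 1697 in tanycytes, against 10320 in neurons, and the microglia markers to 391 in microglia. The OPC list also summed to 816 CPM in neurons, 776 in microglia, 682 in oligodendrocytes, 339 in astrocytes and 265 in tanycytes among nuclei. The part of all these UMIs in the results from nuclei was not tested. Whole cells carry only cluster numbers. Each cluster was named by its marker genes with a rule set after the data had been seen, so the names below stand for OPC-like, microglia-like and so on, and 270 cells of 3 clusters stayed unnamed. The OPC class joins cluster 5 (3814 cells), in which 5 of 5 OPC markers stood out, and cluster 17 (115 cells), in which 4 of 5 did. Of the 10 genes with the highest fold in cluster 17, 9 were cell cycle genes, led by Ube2c, Top2a and Cenpf. None was a marker of OPC or of another class, so the name of cluster 17 rests on the 4 OPC markers alone.

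Levels are given as counts per 1000000 UMIs of the class (CPM). They are not divided by gene length, so levels are compared between cell types for the same gene and not between genes. Sums over a class cannot tell fewer cells of a type from less RNA per cell, which is why counts of single cells are given as well.

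**Figure D1:**
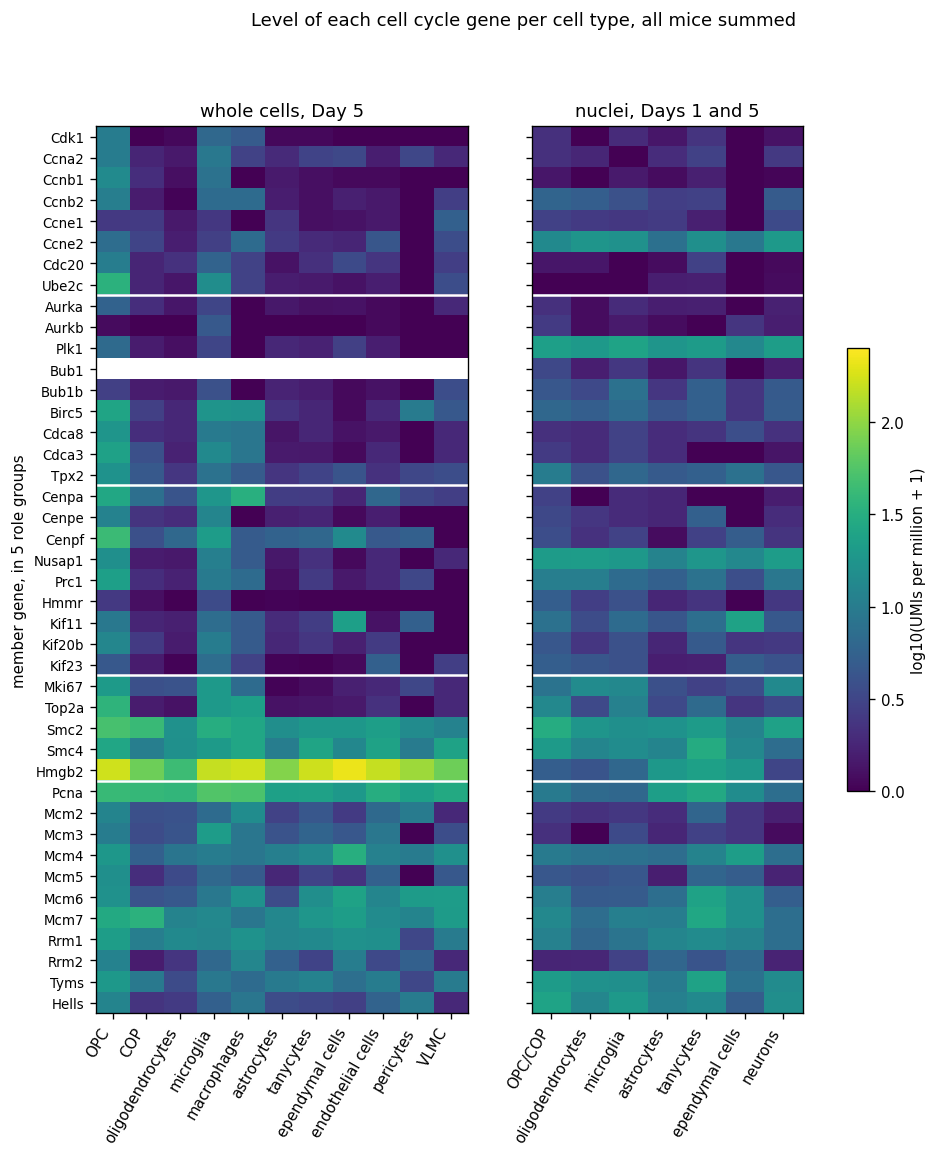
Level of each of the 42 members (rows, in 5 role groups separated by white lines) in each class of whole cells on Day 5 (left) and in each labelled type of nuclei on Days 1 and 5 (right), all mice summed, as log10 of CPM plus 1. The mitotic rows are bright in OPC, microglia and macrophages among whole cells, whereas the Hmgb2, Pcna and Mcm7 rows are lit in every class. Bub1 is blank in whole cells, where it was not analysed.

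Across the classes of whole cells with both treatments pooled, the mitotic genes had their highest levels in OPC, microglia and macrophages. Mki67, the antigen used to stain dividing cells, stood at 19.2 CPM in OPC and 18.8 in microglia, against 0.06 in astrocytes. Top2a, the topoisomerase that untangles sister chromosomes, stood at 35.5 in OPC, 21.6 in macrophages and 18.4 in microglia. Ube2c, the ubiquitin-conjugating enzyme of the anaphase-promoting complex, stood at 34.1 in OPC and 14.0 in microglia. These levels pool all 12 mice, and those of microglia and macrophages rested on FGF1 replicate 6. Without that mouse Mki67, Top2a and Ube2c stood at 7.85, 2.62 and 2.18 CPM in microglia, and Top2a stood at 7.01 in macrophages. In vehicle mice alone Mki67 stood at 5.40 CPM in OPC, where Top2a had 8 and Ube2c 5 UMIs.

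Several genes of replication, and Hmgb2 and Smc2 of the chromosome structure group, were found in more classes. Hmgb2, a chromatin protein that is also made outside mitosis, ranged from 43.2 CPM in oligodendrocytes to 210 in ependymal cells. Pcna, the sliding clamp of DNA polymerase, ranged from 18.1 in ependymal cells to 54.8 in microglia. Mcm7, a subunit of the replicative helicase, stood at 33.9 in committed oligodendrocyte precursors (COP) and 27.5 in OPC. Smc2, a condensin subunit, stood at 49.7 in OPC and 41.4 in COP.

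A member in which the order was different is Kif11, a kinesin motor that pushes spindle poles apart. Its level was 21.6 CPM in ependymal cells and at most 8.19, in OPC, in any other class of whole cells. In nuclei it was 23.2 in ependymal cells and at most 6.91 elsewhere. The ependymal level was present under both treatments, at 0, 18.9 and 29.8 (lowest, median and highest of 6 FGF1 mice) and at 12.0, 25.3 and 39.6 in 6 vehicle mice, so the groups overlapped. Mcm4 (30.6) and Mcm6 (23.1), helicase subunits, were also present in ependymal cells, although 1 of 3575 ependymal cells met the definition of a cell with mitotic RNA given next.

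Single cells were called cells with mitotic RNA where they held UMIs of at least 3 of 26 mitotic members (25 in whole cells). In whole cells 170 of 54890 cells (0.310%) met this definition. OPC held 99 of them (58.2%) and microglia held 49 (28.8%). Both treatments are pooled in these counts. Pooled in this way, the share was 2.52% of 3929 OPC, 2.62% of 1870 microglia and 2.43% of 329 macrophages (8 cells). In vehicle mice alone it was 0.327% of OPC (8 of 2448), 0.314% of microglia (3 of 956) and 0.649% of macrophages (1 of 154), and 43 of the 49 mitotic microglia came from FGF1 replicate 6. Oligodendrocytes had 4 of 9962 cells, endothelial cells 3 of 4113, tanycytes 2 of 14404, vascular leptomeningeal cells (VLMC) 2 of 752, COP 2 of 1747, and pericytes 0 of 359. Astrocytes had 0 of 13580 cells, which allows a share of up to 0.0221%, at a median of 1087 UMIs against 1248 in OPC and 1263.5 in microglia. The part of free RNA in the calls was not tested. Within the OPC class, cluster 17 held 94 of the 99 cells (81.7% of its 115 cells) and cluster 5 held the other 5 (0.131%). The depth of the cells moved with the call, with median UMIs of 1530 in mitotic and 1241 in other OPC and of 1873 and 1257 in microglia. Shares with cells thinned to 1000 UMIs are given below for OPC and microglia.

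**Figure D2:**
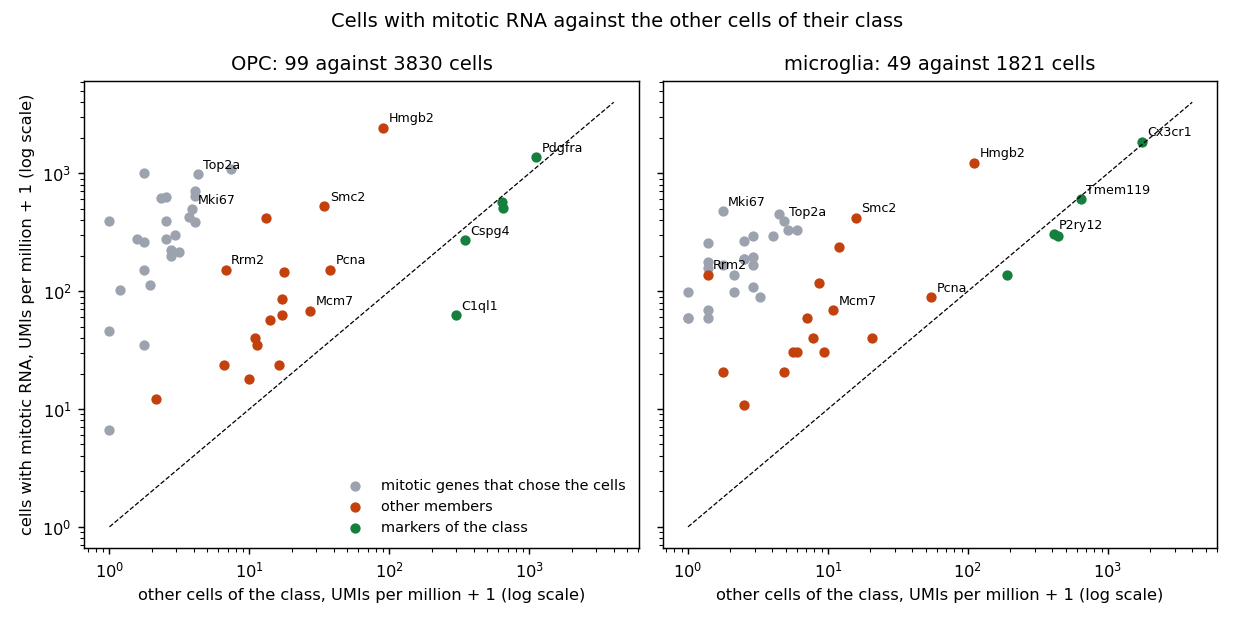
Level of each member in cells with mitotic RNA (vertical axis) against all other cells of the class (horizontal axis), both in CPM on log axes, for 99 against 3830 OPC and 49 against 1821 microglia. Mitotic genes lie far above the diagonal, as the definition makes them, and replication genes lie closer to it.

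The mitotic genes are higher in these cells by definition, so their levels are a description. In OPC with mitotic RNA a median of 8 and up to 21 of the 25 mitotic genes were detected per cell, and in microglia a median of 7 and up to 16. Ube2c was seen in 62.6% of the mitotic OPC (1003 CPM against 0.77 in other OPC), Top2a in 63.6% (975 against 3.27) and Cenpf in 69.7% (1081 against 6.35). Cdk1, the kinase that drives entry into mitosis, was seen in 21.2% of them (224 against 1.73).

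The replication genes were not part of the definition. All 11 of 11 were higher in OPC with mitotic RNA than in other OPC, with medians over the genes of 61.6 and 15.2 CPM. Rrm2, the regulated subunit of ribonucleotide reductase, stood at 151 against 5.77, and Rrm1, its large subunit, at 146 against 16.6. Smaller differences were seen for Pcna (151 against 36.6), Mcm7 (67.2 against 26.2) and Mcm6 (22.4 against 15.2, the former from 4 UMIs). Hmgb2 (2432 against 89.7), Smc2 (527 against 33.3) and Smc4 (415 against 12.1), also outside the definition, were higher as well. Of 38 further mitosis genes measured, 38 were higher in mitotic OPC, and of 29 further replication genes 26 were. Inhibitors and G1 regulators were higher in 13 of 18. The cells were chosen by RNA of the same cycle, so all these counts are a description. The share of all genes that was higher in these cells was not computed, and treatments are pooled, as given next.

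OPC with mitotic RNA kept OPC markers to unequal degrees. Treatments are pooled here, and 91 of the 99 mitotic OPC came from FGF1 mice whereas most other OPC came from vehicle mice. Pdgfra, the growth factor receptor that marks OPC, was at 1361 CPM in mitotic and 1114 in other OPC, Cspg4 (NG2) at 269 and 346, and Cacng4 at 566 and 631. C1ql1 was lower, at 61.6 against 298. Of the COP markers, Gpr17 was at 409 against 642 and Neu4 at 134 against 346, and Bmp4 and Enpp6 were at 0 in the mitotic cells. Microglia with mitotic RNA kept Cx3cr1 (1851 against 1744), Tmem119 (604 against 636) and P2ry12 (302 against 408), and all 5 macrophage markers (Mrc1, Pf4, Cbr2, Cd163 and F13a1) were at 0 in them. Their Hmgb2 was at 1228 against 110, Smc2 at 419 against 14.9, Rrm2 at 136 against 0.38, and Pcna at 87.7 against 53.5. In the 8 macrophages with mitotic RNA, Top2a was at 374 against 10.1, Mrc1 at 311 against 520 and Pf4 at 374 against 963. Not all markers of the lists are given. Left out are Lhfpl3 for OPC, Bcas1 for COP, Siglech and Sall1 for microglia, and Cbr2, Cd163 and F13a1 in these macrophages.

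The question for the 6 FGF1 and 6 vehicle mice of Day 5 was whether icv FGF1 changed these genes. OPC with mitotic RNA were found mainly in FGF1 mice, and mitotic genes were higher in the OPC of FGF1 mice. Of the 99 such cells, 91 came from FGF1 mice and 8 from vehicle mice, although FGF1 mice gave fewer OPC. The share of OPC was 3.07 to 13.7% in FGF1 mice (6.81 ± 3.65%, SD, n = 6) and 0 to 0.427% in vehicle mice (0.309 ± 0.178%, SD, n = 6). No FGF1 mouse reached down to the range of the vehicle mice. The shares are a description with no p, because they are a score over the members.

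Every batch showed the same order. In batch 1, FGF1 replicate 7 had 15 of 275 OPC (5.45%) and vehicle replicate 29 had 1 of 234 (0.427%). Batch 2 gave 14 of 232 (6.03%) in FGF1 replicate 28 and 0 of 234 in vehicle replicate 27, which allows up to 1.28%. Batch 3 gave 13 of 243 (5.35%) in FGF1 replicate 6 and 2 of 482 (0.415%) in vehicle replicate 22. These 3 batches lay close together in both groups. Batch 4 gave the highest share, 29 of 211 (13.7%, exact 95% interval 9.40 to 19.1%) in FGF1 replicate 21, against 1 of 546 (0.183%) in vehicle replicate 20. Batch 5 gave 7 of 97 (7.22%) in FGF1 replicate 10 and 1 of 248 (0.403%) in vehicle replicate 35. Batch 6 gave the lowest FGF1 share, 13 of 423 (3.07%, exact 95% interval 1.65 to 5.20%) in FGF1 replicate 36, against 3 of 704 (0.426%) in vehicle replicate 25. Intervals and limits from counts of 0 cover counting error only. Median UMIs of OPC per mouse overlapped, from 1020 to 1865 under FGF1 and from 996 to 1984.5 under vehicle. With each cell thinned to 1000 UMIs the means were 7.31 ± 5.70% (66 of 1076 cells) and 0.369 ± 0.314% (7 of 1858 cells).

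**Figure D3:**
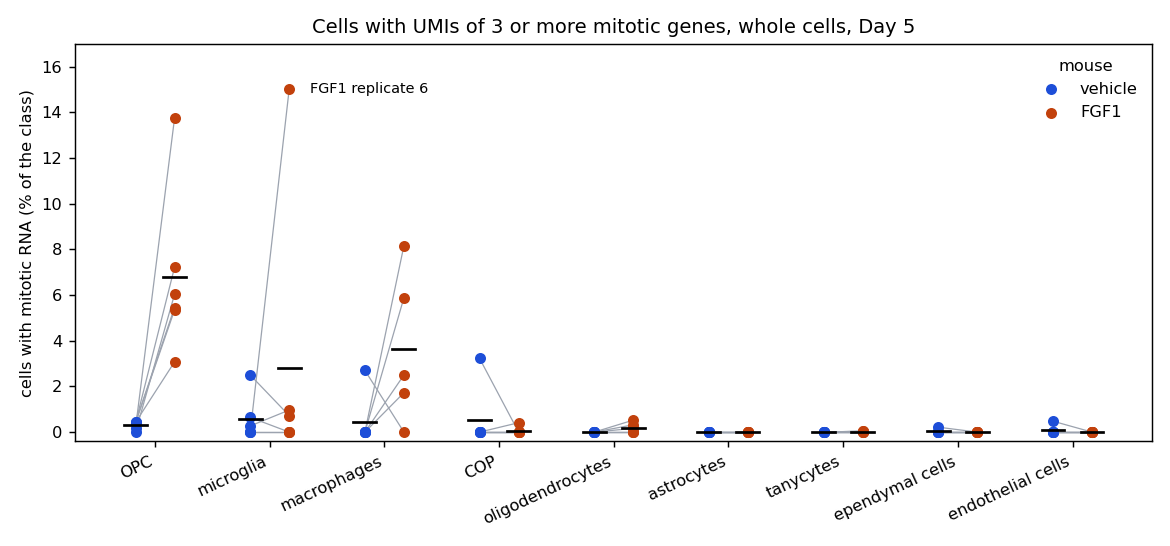
Share of cells with UMIs of at least 3 mitotic genes in each class of whole cells on Day 5, in percent. Each point is a mouse, grey lines join the FGF1 and the vehicle mouse of a batch and black bars are group means. In OPC all 6 FGF1 mice (3.07 to 13.7%) lie above all 6 vehicle mice (0 to 0.427%), and in microglia FGF1 replicate 6 (15%) stands apart from all other mice.

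For the tests, UMIs of a class were summed per mouse and fitted across all genes with edgeR's quasi-likelihood test, and a gene was called at a Benjamini-Hochberg adjusted p below 0.05. The p-values rest on the spread between mice as each fit estimated it. The fit without the filter on low counts, described next, gave smaller ones for Hmgb2 and Smc2 than the filtered fit. The OPC class was tested for 5529 genes, of which 3.24% were called. The filter on low counts, which asks for about 29.99 CPM in at least 6 mice, passed 8 of the 41 members. Ube2c, Top2a, Smc4 and Cenpf passed with no vehicle mouse at that level, so the number that passed carries no weight, and these 4 are given by the fit without the filter. The same fit without the filter tested all 41 members, and there 2.65% of 15267 genes were called. Without the filter all 41 had a positive log2 fold change (median 2.57, against -0.0420 for the median of all 15267 genes in the same fit), 28 of 41 were called higher in FGF1 mice, and 0 were called lower (35 had an unadjusted p under 0.05). Leaving out 1 mouse at a time from this fit gave 22 to 29 members called. Calls that ended with 1 mouse are named beside the gene. Counted by mice alone, 16 of 41 members had every FGF1 mouse above every vehicle mouse, against 0.707% of all 15267 genes. DESeq2, on the filtered sums, called Hmgb2 (1.49, with 2.35% of all genes called) and gave no adjusted p for the other 7 members that passed.

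In the group of cyclins and their partners, Ube2c changed most clearly. Its level in OPC was 38.4, 95.7 and 197 CPM (lowest, median and highest of the 6 FGF1 mice), and it was 0 in 5 vehicle mice and 7.33 in the other. The groups did not overlap, with 178 UMIs under FGF1 and 5 under vehicle. The log2 fold change was 5.67 ± 0.45 (SE, edgeR without the filter, adjusted p = 7.04e-16). With 1 mouse left out at a time it ran from 5.30 to 8.30. Ccna2, cyclin A2, which acts in S phase and early mitosis, was at 8.15, 14.9 and 54.1 under FGF1 and 0, 1.73 and 4.40 under vehicle, without overlap. It was called without the low-count filter (log2 fold change 2.95, edgeR adjusted p = 2.63e-06). Cdc20, an activator of the anaphase-promoting complex, was at 10.2, 18.5 and 30.9 against 0, 1.29 and 7.93, again without overlap (2.57 without the filter). Cdk1 was at 0, 10.7 and 92.7 under FGF1, with 3 mice at 0 and the highest value in FGF1 replicate 21, and at 0, 0 and 2.93 under vehicle. Its groups overlapped and it was not called (4.71 ± 1.41 without the filter, edgeR adjusted p = 0.136). Of the 8 genes of this group 5 were called without the filter, and the median log2 fold change was 2.76 (0.57 to 5.67). The lowest was that of Ccne1, a G1/S cyclin (0, 0.77 and 10.2 against 0, 0 and 6.69). Of the other cyclins, Ccne2 (5.12, 8.84 and 30.9 against 0, 2.46 and 7.57) and Ccnb2 (0, 19.4 and 50.2 against 0, 1.29 and 9.91) were called without the filter (Ccne2 not without FGF1 replicate 7 or 21 or vehicle replicate 25), and Ccnb1, cyclin B1 (0, 35.3 and 104 against 0, 0 and 5.94), was not (edgeR adjusted p = 0.130).

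Among mitotic kinases, checkpoint genes and chromosomal passengers, 6 of 8 were called without the filter, with a median log2 fold change of 2.97 (1.46 to 3.84). Birc5 (survivin), a subunit of the chromosomal passenger complex, was at 27.6, 57.9 and 127 CPM in FGF1 mice and 0, 4.60 and 11.9 in vehicle mice. Cdca8 (borealin), of the same complex, was at 23.0, 35.0 and 65.6 against 0, 1.65 and 16.7. Neither gene's groups overlapped. Cdca3, a trigger of mitotic entry, was at 21.5, 55.1 and 139 against 0, 0 and 8.80, and Tpx2, which activates Aurora A on the spindle, at 9.21, 43.4 and 81.1 against 1.48, 3.56 and 5.94. Both were also without overlap. The kinases themselves were at low counts. Plk1 was at 0, 9.87 and 42.5 against 0, 0.55 and 2.97 (2.89 without the filter, edgeR adjusted p = 9.18e-04), Aurka at 0, 5.82 and 38.6 against 0, 0 and 5.94, and Aurkb had 1 UMI in all 12 mice. The calls of Plk1 and Aurka were lost without FGF1 replicate 21. Bub1b, a checkpoint kinase, was at 0, 0 and 14.1 against 0, 0.55 and 1.98 and was not called. Its relative Bub1, seen in nuclei alone, had 51 UMIs in all nuclei, with 2.30 CPM in OPC/COP (6 UMIs).

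Of the kinetochore, spindle and motor genes, 7 of 9 were called without the filter, with a median log2 fold change of 3.16 (1.98 to 4.74). Prc1, which bundles the microtubules of the central spindle, was at 27.2, 56.5 and 124 CPM against 0, 1.10 and 3.96, without overlap, and had a log2 fold change of 4.74 (edgeR without the filter, adjusted p = 3.19e-29). Cenpf, a kinetochore protein of late G2, was at 35.3, 102 and 220 against 1.48, 8.24 and 29.7. It was called without the filter (3.16 ± 0.59, edgeR adjusted p = 0.0181), and that call was lost without vehicle replicate 22 or 25. Cenpa, the histone of the centromere, was at 24.6, 53.0 and 104 against 0, 3.32 and 35.7, where the groups overlapped, and it was not called (2.78 ± 0.68, edgeR adjusted p = 0.0551). Kif20b, a kinesin of cytokinesis, was at 10.7, 19.1 and 73.4 against 0, 0.99 and 7.33, and Nusap1, a spindle microtubule protein, at 13.8, 33.9 and 92.7 against 0, 0 and 8.80. Neither overlapped. Cenpe, a kinetochore motor (0, 28.2 and 77.2 against 0, 0 and 3.29), Kif11 (3.52, 16.5 and 46.3 against 1.10, 1.73 and 7.57) and Hmmr, with 8 UMIs in 1 FGF1 mouse and 0 in vehicle mice, were called without the filter. The call of Hmmr was lost without vehicle replicate 25, and the gene had no UMI left without that FGF1 mouse. Kif23, a motor of the central spindle (0, 0.77 and 34.8 against 0, 0 and 13.4), was not.

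All 5 genes of chromosome structure were called without the filter. Top2a was at 36.9, 90.1 and 243 CPM in FGF1 mice, and at 0 in 5 vehicle mice and 11.7 in the other (log2 fold change 5.13 ± 0.86, edgeR without the filter, adjusted p = 0.0106). Smc4, a condensin subunit, was at 38.4, 45.3 and 108 against 1.48, 11.4 and 20.1 (2.37 ± 0.29, edgeR without the filter, adjusted p = 5.48e-13). For both genes the groups stood apart, although the call of Top2a was lost without vehicle replicate 22. With 1 mouse left out at a time the log2 fold change of Top2a ran from 4.71 to 8.35. Hmgb2 was at 193, 297 and 417 against 69.2, 98.3 and 189 (1.52 ± 0.22, edgeR adjusted p = 0.00108). Without the filter its values were 1.49 ± 0.15 (edgeR adjusted p = 3.14e-21). Smc2 was at 56.3, 74.3 and 162 against 11.4, 33.9 and 43.5 (1.41 ± 0.27, edgeR adjusted p = 0.00454), and its adjusted p was 0.0518 with the batch as a block. Without the filter its values were 1.39 ± 0.21 (edgeR adjusted p = 1.49e-08), so the size of p depended on the fit. These 2 genes have many UMIs in both groups and also did not overlap. Mki67 did not pass the filter. It was at 26.1, 45.0 and 73.4 against 1.48, 6.29 and 10.0 (46.6 ± 18.6 and 6.03 ± 3.98, SD, n = 6), without overlap, with a log2 fold change of 2.88 (edgeR without the filter, adjusted p = 1.22e-13).

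The replication genes had smaller differences, a median log2 fold change of 0.92 (0.31 to 1.76) over 11 genes, of which 5 were called without the filter (Rrm2, Pcna, Mcm5, Rrm1 and Tyms). Rrm2 was at 7.04, 16.6 and 51.2 CPM in FGF1 mice and 2.93, 5.32 and 11.4 in vehicle mice, with a log2 fold change of 1.76 (edgeR without the filter, adjusted p = 0.00538). Pcna was at 31.9, 59.1 and 81.0 against 17.6, 29.1 and 63.5, higher in the FGF1 mouse of 4 of 6 batches. It passed the filter and was not called there (0.85 ± 0.26, edgeR adjusted p = 0.0643). The groups of both genes overlapped. Mcm2, a helicase subunit, was at 10.2, 16.2 and 24.6 against 5.49, 8.18 and 11.9 (0.92, edgeR adjusted p = 0.285 without the filter). Mcm7 was at 15.4, 32.1 and 42.5 against 16.7, 22.4 and 34.1 and had the lowest value of the group, 0.31 (edgeR adjusted p = 0.675 without the filter). Mcm5, also of the helicase (14.1, 24.6 and 30.9 against 3.79, 7.05 and 15.9), Rrm1 (17.6, 31.3 and 57.9 against 7.57, 14.1 and 23.4) and Tyms, thymidylate synthase (14.1, 28.4 and 49.6 against 7.69, 14.0 and 15.9), lay between. Mcm3, Mcm4, Mcm6 and Hells, a chromatin remodeller, had log2 fold changes of 1.32, 0.60, 0.89 and 0.78 and were not called. None of the 11 had all FGF1 mice above all vehicle mice. Each of the 5 calls was lost without some single mouse. Rrm2 lost it without FGF1 replicate 10, and Mcm5 without FGF1 replicate 21 or vehicle replicate 25. Pcna lost it without FGF1 replicate 6 or 21 or vehicle replicate 20 or 22, and Rrm1 without FGF1 replicate 10, 21 or 28 or vehicle replicate 22 or 25. Tyms kept it in 5 of 12 such fits, those without FGF1 replicate 6 or 7 or vehicle replicate 22, 27 or 35.

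**Figure D4:**
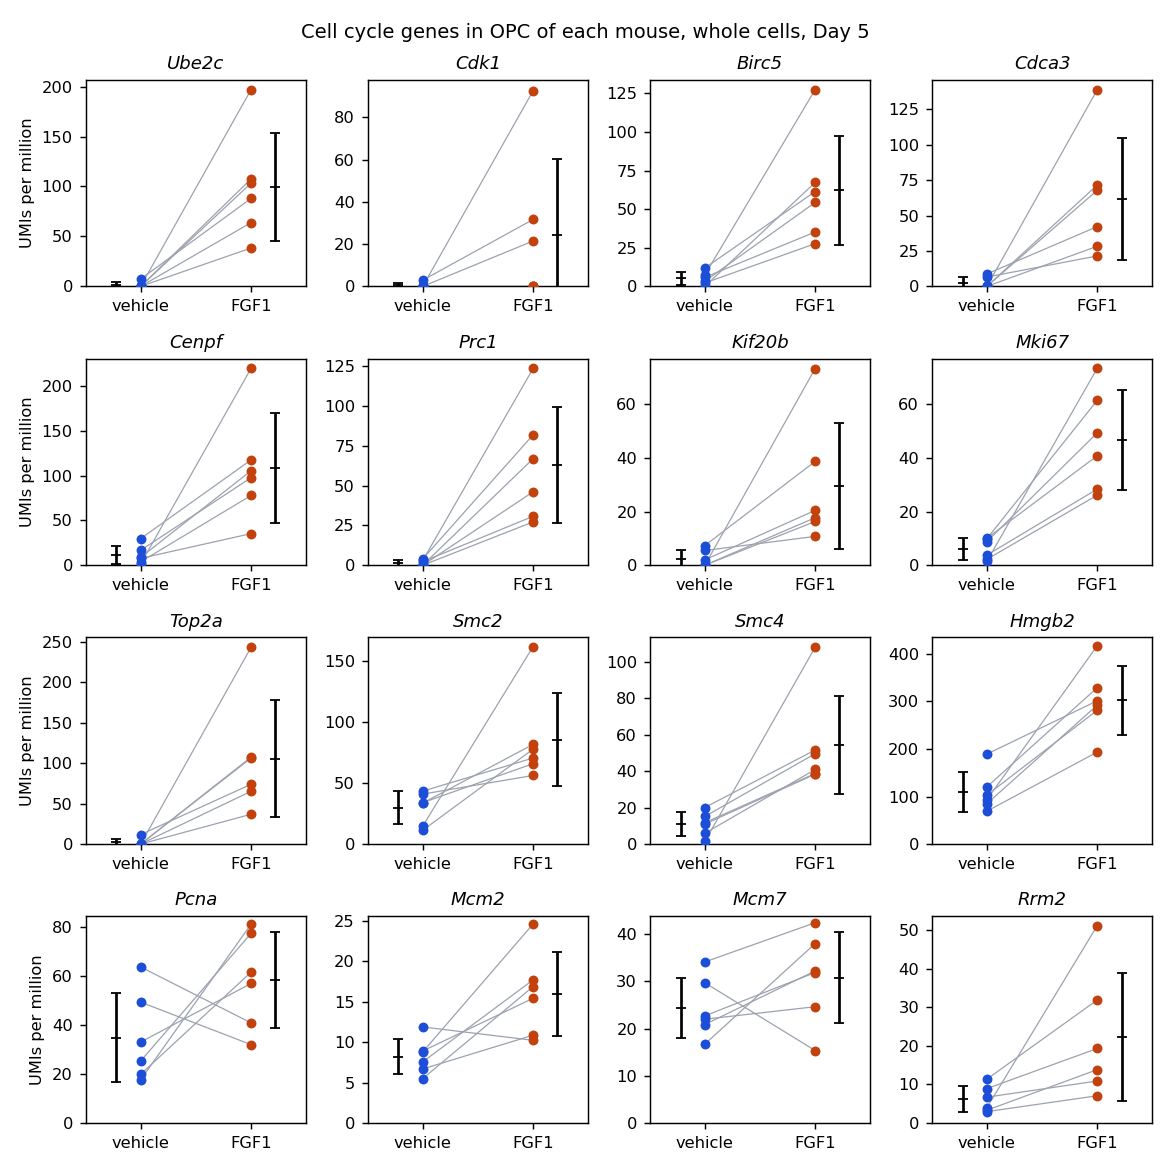
CPM of 16 members in the OPC class of whole cells on Day 5. Each point is a mouse, grey lines join the 2 mice of a batch and bars show mean ± SD (n = 6). FGF1 mice lie above all vehicle mice for Ube2c, Birc5, Cdca3, Cenpf, Prc1, Kif20b, Mki67, Top2a, Smc2, Smc4 and Hmgb2, and the groups overlap for Cdk1, Pcna, Mcm2, Mcm7 and Rrm2.

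The cells of cluster 17, which the clustering had set apart by these same genes, came to 104 from FGF1 and 11 from vehicle mice. Its part of the UMIs is therefore a description, and no test of cluster 5 alone is drawn on. Cluster 17 held 175 of the 178 Ube2c UMIs and 175 of the 183 Top2a UMIs of OPC from FGF1 mice. It held 398 of 578 Hmgb2, 86 of 165 Smc2, 65 of 105 Smc4 and 28 of 116 Pcna UMIs. In cluster 5 alone, FGF1 and vehicle levels were 96.7 and 73.3 CPM for Hmgb2, 42.4 and 26.3 for Smc2, 21.5 and 6.94 for Smc4 and 47.3 and 30.2 for Pcna.

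Other genes of the cycle followed in OPC. Of 90 further cell cycle genes, 85 were in the whole-cell table. In the filtered fit 17 were tested and 5 were called, all higher in FGF1 mice. They were Cks2, a CDK1 subunit (log2 fold change 2.99 without the filter, edgeR adjusted p = 0.00613, since 1 vehicle mouse reached the filter's level), Lig1, the replicative DNA ligase (with the filter 0.93, 0.0141), Slbp, which binds histone mRNA (0.79, 0.0233), Cdk4, the G1 kinase (0.67, 0.0134), and Cdkn2d, an inhibitor of CDK4 (0.66, 0.0438). DESeq2 called 1 of the 17, and edgeR called 1 without vehicle replicate 25, 2 without vehicle replicate 20 or 22 and 3 without FGF1 replicate 7 or 21. Without the filter 31 of the 85 were called higher and 0 lower, and Cdkn2d was not called. Cdk4 was also called higher in COP (log2 fold change 1.00, edgeR adjusted p = 0.00518), in oligodendrocytes (0.52, 0.0386) and in all cells summed (0.82, 4.14e-04). The call in oligodendrocytes was lost without any of FGF1 replicates 6, 7, 10 or 21 or vehicle replicates 20, 22 or 25.

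In microglia the share of cells with mitotic RNA rested on 1 mouse. FGF1 replicate 6 had 43 of 286 microglia with mitotic RNA (15%, exact 95% interval 11.1 to 19.7%). The other FGF1 mice had 0 of 132, 1 of 139, 0 of 73, 0 of 77 and 2 of 207, and the vehicle mice had 0 of 62, 1 of 40, 0 of 123, 0 of 205, 1 of 155 and 1 of 371. The groups overlapped, with means of 2.79 ± 6.02% and 0.569 ± 0.979% (SD, n = 6), and the FGF1 mean was 0.337% without that mouse. Median UMIs of its microglia, 1257.5, lay among those of the others. With cells thinned to 1000 UMIs, 36 of 748 microglia (4.81%) of FGF1 mice and 3 of 730 (0.411%) of vehicle mice had mitotic RNA. The same mouse had 4 of 49 macrophages with mitotic RNA (8.16%), and its OPC share of 5.35% was within the range of the other FGF1 mice.

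The microglia fit tested 2676 genes and called 0.262% of them. Hmgb2 and Pcna were the members that passed the filter, and 0 of 2 were called by edgeR or by DESeq2 (0 had an unadjusted p under 0.05). Hmgb2 was at 52.2, 96.6 and 351 CPM under FGF1 and 87.5, 139 and 295 under vehicle, and Pcna at 36.5, 61.7 and 74.1 against 32.5, 45.9 and 110. Top2a was at 0, 5.77 and 103 against 0, 0 and 5.68, and Mki67 at 0, 0 and 77.3 against 0, 5.03 and 59.1. The groups overlapped for all of these. Without the filter 0.645% of 14888 genes and 10 of 41 members were called higher (Nusap1, Ube2c, Cenpe, Cdca8, Cenpa, Cdca3, Top2a, Birc5, Ccnb2 and Cdk1). Without FGF1 replicate 6 as well, 0.293% of all genes and 0 of 38 members were called by edgeR (6 had an unadjusted p under 0.05).

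In the other classes few members were called. Oligodendrocytes (2.25% of 8438 genes called) had 1 of 6 tested members called, Smc4, at 13.7, 23.3 and 31.2 CPM in FGF1 mice and 8.42, 11.9 and 13.1 in vehicle mice. The groups did not overlap (log2 fold change 0.85 ± 0.21, edgeR adjusted p = 0.0306). Leaving out any of FGF1 replicates 6, 7 or 36 or vehicle replicates 20 or 25 ended the call. The cells of this class lay in different clusters in the 2 groups, with 1799 FGF1 and 5610 vehicle cells in cluster 2, 1212 and 166 in cluster 11, and 223 and 952 in cluster 12. In cluster 2 fitted alone Smc4 was not called (0.78, edgeR adjusted p = 0.181). Astrocytes (12.6% of 9830 genes called) had 1 of 8 called, Smc2, at 15.3, 17.3 and 24.2 against 6.96, 10.6 and 17.4, with overlap (0.75 ± 0.23, edgeR adjusted p = 0.0301). The adjusted p was 0.0513 by DESeq2 and 0.0733 in cells within the limit on mitochondrial and ribosomal RNA, and the call was lost without FGF1 replicate 10 or 21 or vehicle replicate 25, 29 or 35. Astrocytes of FGF1 mice lay mainly in cluster 4 (3412 cells, and 1531 in cluster 1) and those of vehicle mice mainly in cluster 1 (7940, and 697 in cluster 4). In cluster 1 fitted alone Smc2 was not called (1.01, edgeR adjusted p = 0.245). Both genes were also called higher in OPC.

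Tanycytes, which line the floor of the third ventricle close to the injected fluid, had 0 of 9 tested members called by edgeR or DESeq2 (5.08% of 10494 genes called by edgeR, and 1 of the 9 members with an unadjusted p under 0.05). Ependymal cells (1.28% of 6734 genes called) had 0 of 5 called by edgeR, with 1 at an unadjusted p under 0.05, and 0 by DESeq2, which gave no adjusted p for 4 of them. There Hmgb2 was at 91.9, 127 and 257 CPM under FGF1 and 220, 238 and 255 under vehicle (-0.51, edgeR adjusted p = 0.200), and with the batch as a block it was called lower (-0.62, edgeR adjusted p = 0.0311, 2.24% of genes called). COP (1.25% of 4171 genes called) had 0 of 3 called, with log2 fold changes of 0.29 for Smc2, -0.34 for Hmgb2 and -0.46 for Mcm7, and endothelial cells (0.948% of 6329 called) had 0 of 3. Neither had a member at an unadjusted p under 0.05 in edgeR or a member called by DESeq2, which gave no adjusted p for 2 of the 3 in COP. Macrophages had 1 member tested, Hmgb2 (0.64, not called), and no member passed the filter in pericytes or VLMC.

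When all cells of a mouse were summed and no filter was used, 7.07% of 16255 genes and 8 of 41 members were called, all higher in FGF1 mice (23 members had an unadjusted p under 0.05). With the filter 9.58% of 13723 genes and 9 of 30 members were called, but Ube2c, Prc1 and Kif20b passed it with no vehicle mouse at its level. Ube2c was at 2.08, 4.74 and 21.9 CPM against 0, 0 and 1.30 (log2 fold change 4.93 ± 0.97, edgeR without the filter, adjusted p = 0.0104). With 1 mouse left out at a time its log2 fold change ran from 4.41 to 8.78. Prc1 was at 2.37, 3.26 and 13 against 0, 0.61 and 0.99 (3.09 ± 0.61, edgeR without the filter, adjusted p = 0.00894). Smc4 was at 19.0, 24.6 and 28.4 against 11.5, 13.9 and 17.2 (0.77 ± 0.12, edgeR adjusted p = 0.00315). None of these overlapped. Mcm7 was at 16.8, 19.4 and 21.7 against 12.3, 13.1 and 14.2 (0.55 ± 0.09, edgeR adjusted p = 0.00350), without overlap, although it was not called in any single class. The makeup of the cells moved with these sums, as COP were 1583 of 25767 FGF1 and 164 of 29123 vehicle cells and tanycytes 9204 and 5200, and its part in them was not tested. The others called without the filter were Top2a (4.27), Cdca3 (3.31), Birc5 (2.57) and Smc2 (0.72). In that fit Ube2c, Prc1, Smc4, Mcm7 and Smc2 kept their calls without any 1 mouse, and 5 members were called without FGF1 replicate 21 or vehicle replicate 20, 25 or 29. Top2a lost its call without any of these 4 mice and Birc5 without any of them or vehicle replicate 22, and Cdca3 kept it in 4 of 12 fits, those without FGF1 replicate 10, 28 or 36 or vehicle replicate 22. Kif20b (2.14), called with the filter, had an adjusted p of 0.0548 without it (edgeR) and lost its filtered call without any mouse but FGF1 replicate 36.

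On this scale the share of cells with mitotic RNA was 0.150, 0.395 and 2.72% of all cells (lowest, median and highest FGF1 mouse) and 0.0252 to 0.0899% in vehicle mice, so the groups did not overlap. The highest FGF1 value was that of replicate 6. Other cell cycle genes called in all cells were 7 higher and 1 lower of 55 tested, where 9.58% of all genes were called, with 4 higher without FGF1 replicate 21. The higher ones were Cdk4, Cks1b (1.10), Cks2 (1.43), Cdkn2c (0.67), Atad2 (0.73), E2f8 and Ckap2. E2f8 (168 UMIs under FGF1 and 4 under vehicle) and Ckap2 (233 and 15) passed the filter with no vehicle mouse at its level, and without it they were called too (5.35 and 4.04, edgeR adjusted p = 0.00145 and 0.00592). Cdkn2c and Atad2 lost their calls without most single mice, and Cks2 without FGF1 replicate 21 or vehicle replicate 20, 22 or 25. Cit, citron kinase, was lower (-0.60), a call lost without vehicle replicate 20 or 25. In astrocytes 2 of 28 were called, a smaller share than the 12.6% of all genes. Their cells lay in different clusters in the 2 groups, as given above. There Cdkn1a (p21), which halts the cycle, was lower (-1.35, edgeR adjusted p = 9.5e-05) and Nuf2, a kinetochore gene, was higher (1.14, edgeR adjusted p = 0.00461). In cluster 1 fitted alone Cdkn1a was not called (-0.63, edgeR adjusted p = 0.320) and Nuf2 did not pass the filter.

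Nuclei addressed the time course, with 3 mice per group on Day 1 and 2 on Day 5. Of 24965 nuclei, 147 had UMIs of at least 3 mitotic genes, and 97 of those were among 19416 neurons (0.500%), which do not divide. The neuronal nuclei so called were deep (median 5802 UMIs against 2614 in the others) and held at most 5 mitotic genes. With each nucleus thinned to 1000 UMIs, 1 of 19416 neurons remained, against 3 of 662 OPC/COP, 1 of 438 tanycytes, 1 of 1375 oligodendrocytes and 0 of 481 microglia. The 13 OPC/COP nuclei with mitotic RNA were not deeper than the rest (3265 against 3424 UMIs) and held a median of 4 and up to 14 mitotic genes. Shares in neurons are read here as the background of the nuclei, and that background was not equal between groups. It was 0.347% of FGF1 and 0.978% of vehicle neurons on Day 1, at median UMIs of 2274 and 3247. On Day 5 it was 0.200% and 0.896%, at 2557 and 2797. The part of this difference in the shares given below was not tested.

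**Figure D5:**
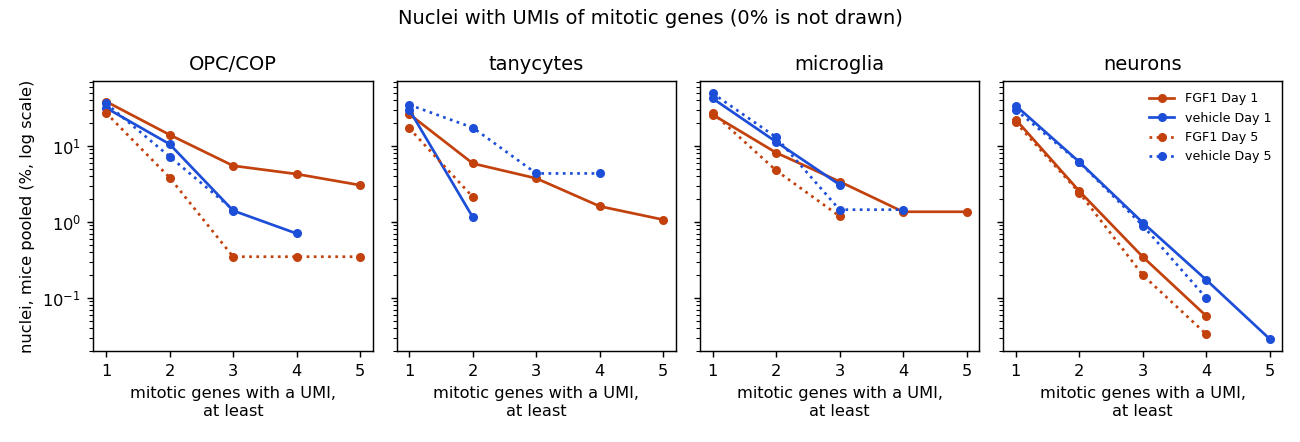
Share of nuclei (percent, log axis) with UMIs of at least 1 to 5 mitotic genes, for OPC/COP, tanycytes, microglia and neurons, pooled within each treatment and day, with shares of 0 not drawn. At 4 genes the OPC/COP of FGF1 mice on Day 1 have 7 of 164 nuclei, beside 1 of 23 in tanycytes of vehicle mice on Day 5, and at 5 genes they have 5 of 164, against 2 of 147 in microglia, 2 of 187 in tanycytes and 0 of 6921 in neurons of the same mice.

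On Day 1, OPC/COP nuclei with mitotic RNA were 1 of 68 (1.47%), 6 of 75 (8%) and 2 of 21 (9.52%) in the FGF1 mice and 0 of 46, 0 of 54 and 2 of 42 (4.76%) in the vehicle mice. The groups overlapped, and the means were 6.33 ± 4.28% and 1.59 ± 2.75% (SD, n = 3). Within batches, the FGF1 mouse was lower in batch 3 (1.47 against 4.76%) and higher in batch 4 (8 against 0%) and batch 5 (9.52 against 0%). Nuclei with at least 4 mitotic genes were 7 of 164 and 1 of 142. On Day 5 the counts were 0 of 85 and 1 of 202 in FGF1 mice and 0 of 52 and 1 of 17 in vehicle mice, which does not separate the groups at this depth.

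Top2a was the member that was called in OPC/COP of Day 1 once the low-count filter was dropped. It had 3, 19 and 3 UMIs (14.6, 55.9 and 40.6 CPM) in the FGF1 mice and 1, 0 and 1 UMIs (4.54, 0 and 4.63) in the vehicle mice. The groups did not overlap (log2 fold change 3.44 ± 0.88, edgeR without the filter, adjusted p = 0.0488), and 1 of 41 members tested was called, against 0.194% of all genes. This fit was not repeated with a mouse left out, and most of the FGF1 UMIs came from 1 mouse. With the filter no member was tested in this type. On Day 5 Top2a had 0 and 4 UMIs in FGF1 mice and 0 and 1 in vehicle mice.

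Tanycyte nuclei of Day 1 with mitotic RNA were 3 of 119, 0 of 43 and 4 of 25 (16%) in FGF1 mice and 0 of 32, 0 of 35 and 0 of 20 in vehicle mice, of which a count of 0 of 20 allows up to 15%. More FGF1 nuclei exceeded 5% of UMIs in mitochondrial or in ribosomal RNA, and the 2 kinds are not given apart. At or under 5% for each were 72 of 187 FGF1 nuclei (19 of 119, 33 of 43 and 20 of 25) against 84 of 87 vehicle nuclei. Within that limit 5 of 72 FGF1 nuclei (6.94%, against 3.74% of all 187) and 0 of 84 vehicle nuclei had mitotic RNA. The 16% has an exact 95% interval of 4.54 to 36.1%. All 6 Top2a UMIs in tanycytes of Day 1 were in that FGF1 mouse, replicate 3. Pcna in tanycytes was at 52.7, 46.6 and 37.8 CPM in FGF1 mice (21, 7 and 3 UMIs) and 6.72, 14.3 and 14.0 in vehicle mice (1, 2 and 1 UMIs), without overlap. Mcm7 was at 62.7, 13.3 and 63.0 against 13.4, 21.4 and 0, with overlap. The part of mitochondrial and ribosomal RNA in these levels was not tested. No member passed the filter in tanycytes. Without it 0 of 36 were called by edgeR (8 had an unadjusted p under 0.05, and the adjusted p of Pcna was 0.122), where 3.32% of 16958 genes were called. Of 6 other cycle genes tested Cdk4 was called higher (2.17, edgeR adjusted p = 0.0429), where 9.14% of 3534 genes were called. That call was lost with the batch as a block, within the limit on mitochondrial and ribosomal RNA, and without FGF1 replicate 1 or 2 or vehicle replicate 1 or 3. On Day 5 tanycytes had 0 of 34 and 0 of 107 in FGF1 mice and 0 of 9 and 1 of 14 in vehicle mice.

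With all mice and the low-count filter, edgeR called no member in any type of nuclei, but in several types none could be called. No member passed that filter on Day 1 in tanycytes, ependymal cells, astrocytes, OPC/COP or microglia. The same held on Day 5 in OPC/COP and microglia. Oligodendrocytes had 1 member tested on Day 1 and 4 on Day 5, and astrocytes had 2 on Day 5. On Day 1, 0 of 23 members tested in neurons were called by edgeR or DESeq2 (2 had an unadjusted p under 0.05 in edgeR), where 0% of 14933 genes were called. In all nuclei summed 0 of 29 were called by edgeR (3 had an unadjusted p under 0.05), where 0.274% of 16053 genes were called, and DESeq2 called 1, Prc1 (-1.78, adjusted p = 0.0339), with 1.75% of all genes called. Neuronal Prc1 was at 3.90, 3.90 and 5.58 CPM in FGF1 mice and 10.4, 8.46 and 26.4 in vehicle mice, without overlap (log2 fold change -1.73, not called). This direction is opposite to that of Prc1 in OPC of whole cells on Day 5, from which these values differ in cell type, day and preparation.

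On Day 5, edgeR called 0 of 26 members in neurons (0% of 16022 genes called, 3 members with an unadjusted p under 0.05) and 0 of 29 in all nuclei (0% of 16929 genes called, 4 members with an unadjusted p under 0.05), and DESeq2 called 0 in both but gave no adjusted p for 12 of the 26 and 13 of the 29. In neurons Plk1 was at 14.8 and 15.4 CPM in FGF1 mice and 25.2 and 43.0 in vehicle mice, and Mki67 at 8.97 and 7.64 against 17.1 and 17.8. Neither overlapped and neither was called (edgeR adjusted p = 0.490 for both). Pooled over all nuclei of a type, Plk1 stood between 12.3 and 23.6 CPM in every labelled type.

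The difference between the effects of Day 5 and Day 1 was tested in nuclei as an interaction. No member was called in neurons (0 of 30 by edgeR and by DESeq2, 0 with an unadjusted p under 0.05, and 0% of 16682 genes called) or in all nuclei (0 of 33 by edgeR and by DESeq2, 1 with an unadjusted p under 0.05, and 0.00568% of 17617 genes called). In OPC/COP no member passed the filter in this fit. Without it 0 of 41 were called by edgeR, 2 had an unadjusted p under 0.05 (Aurkb and Bub1), and 0.139% of 18695 genes were called. Day 5 tanycytes and ependymal cells could not be fitted because a group had fewer than 2 mice with 10 nuclei.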

How the data were processed

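Hypothalamic nuclei (Days 1 and 5) and whole cells (Day 5) had been profiled with the 10x Chromium 3′ v2 kit. The deposited tables hold raw UMI counts per gene and barcode, made by the authors with Cell Ranger 1.2 and Seurat per the labels and the study's methods, on GRCm38 (mm10). The methods state that doublets were removed with Scrublet in whole cells and that this step was omitted for nuclei, that neurons were set aside from whole cells and that clusters made mostly of 1 sample were dropped. Doublets were not called again here. Barcode counts in the deposited tables differ from the cell counts given in the study. For whole cells, the authors deposited the percent of UMIs from mitochondrial and from ribosomal protein genes together with the batch and cluster of each cell. For nuclei it was computed here. Nuclear counts included introns. The deposited normalized values were not used.

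The members and all gene lists were chosen with earlier results of these data known. All 42 members are accounted for. Given in detail are members called in any comparison, the leading members of each role, and Mki67, Top2a, Cdk1, Pcna, Mcm2 and Rrm2. Further cell cycle genes are named for some fits only, and not all of those called in OPC without the filter are named. Other members with their values were named after those were seen.

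UMI counts of all barcodes of a type were added up for each mouse (10 or more cells per mouse, 2 or more mice per group), and the sums were fitted across all genes with edgeR 4.0.16 (filterByExpr with a minimum count of 10, TMM scaling, robust quasi-likelihood test, no covariates) in R 4.3.3, with Benjamini-Hochberg adjustment over all genes tested and a threshold of 0.05. The interaction used all 10 nuclei samples. Alternatives were DESeq2 1.42.0, the size factor method (RLE) for scaling, no low-count filter, barcodes with at most 5% (nuclei) or 20% (cells) mitochondrial and ribosomal UMIs (963 nuclei and 4382 cells lie above), the batch as a block, single clusters, each mouse left out, and, for shares, 2 or 4 genes or thinning to 1000 UMIs. A cluster took a class name where at least 3 markers of the class passed 3 limits. These were presence in 10% of its cells, at least 2 times the level of other cells, and at least 30% of the level in the highest cluster. It stayed unnamed where 2 classes tied or where another class had at least 3 markers in 50% of its cells. Cluster 18 (108 cells, 5 OPC markers) stayed unnamed in this way.

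On simulated counts for the OPC comparison (5529 genes), the test recovered 88% of 2-fold and 89% of 4-fold changes, with 6 false calls among 183. For all nuclei on Day 1 (16053 genes) it recovered 7% and 57%, with 6 false among 70. Both simulations used only genes that passed the low-count filter, with the filtered fit, and say nothing of the fit without it. Tables were read with Python 3.11.15 and pandas 2.3.3. Promoter letters were searched in RefSeq promoters of GRCm38.p6.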

Additional observations from a re-analysis of the deposited data

Results flagged for a closer look

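Of 40 groups of 6 mice examined in whole cells, 11 held a mouse far from the others by Dixon's test at its 95% critical value. Chance alone passes that value in about 1 in 20 groups of normally spread values. A group in which all mice but 1 are at 0 always passes it, so the 11 cannot be set against that rate. In FGF1 replicate 6 the share of microglia with mitotic RNA was 15% and that of all cells was 2.72%. In vehicle mice, the microglia share of replicate 27 (2.50%, 1 of 40 cells) and the macrophage share of replicate 35 (2.70%, 1 cell) stood apart, both through a single cell.

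In OPC, FGF1 replicate 21, the mouse with the highest share of OPC with mitotic RNA, stood above the other FGF1 mice for Cdk1 (92.7 CPM), Smc2 (162), Smc4 (108) and Top2a (243). Vehicle replicate 22 was the vehicle mouse in which Cdk1 (2.93), Top2a (11.7) and Ube2c (7.33) were found in OPC, all other vehicle mice being at 0.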

How the results depend on the processing

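No called value changed sign under the alternatives run. The order of the mean shares did turn in all nuclei, where FGF1 lay below vehicle as counted (0.833 against 1.25% on Day 1, 0.236 against 1.65% on Day 5) and above it when thinned and, on Day 1, with 4 genes. It turned in Day 5 OPC/COP nuclei (0.248 against 2.94%) with 4 genes or without vehicle replicate 38 (0 in vehicle mice), and in microglia without FGF1 replicate 6 (0.337 against 0.569%). In OPC the filtered fit called 6 members, but Ube2c, Cenpf, Top2a and Smc4 entered it through FGF1 mice alone. The count without the low-count filter was 28 of 41, with many of its p-values resting on a spread estimated across genes. It was 29 without the filter and with the batch as a block, and the filtered count was 0 of 2 tested in cluster 5 fitted alone, which says nothing of stability because most cells with mitotic RNA had been clustered apart in cluster 17 (11 vehicle cells, too few for a fit). With single clusters 0 members were called in oligodendrocytes and in astrocytes too. Astrocytes had 0 called by DESeq2 and within the limit on mitochondrial and ribosomal RNA. Without the filter they had 3 of 40 members called (Ube2c, Smc2 and Birc5), where 633 genes were called higher and 617 lower of 15721. Ependymal cells had 1 (Hmgb2, lower) with the batch as a block, microglia 10 without the filter, all cells 14 by DESeq2 (Cenpf, Tpx2, Cdca8, Cenpa and Mki67 added), Day 1 OPC/COP nuclei 1 without the filter and all Day 1 nuclei 1 by DESeq2. For the 14 of all cells by DESeq2 no share of all genes is given, so that count is not compared with the edgeR one. The settings without a replicate or with a block beside the missing filter were chosen after seeing the data. Except where fewer samples or genes are the setting itself, the cause was not tested.

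Leaving out 1 mouse at a time without the filter gave 22 to 29 members called in OPC and 5 to 11 in all cells. In the filtered fits, where members could enter through FGF1 mice alone, it gave 6 to 12 in OPC, counts that carry no weight, 0 to 1 in oligodendrocytes, 0 to 2 in astrocytes (0 without FGF1 replicate 10 or 21 or vehicle replicate 25, 29 or 35, and 2, with Hmgb2 called lower, without FGF1 replicate 36), 0 to 1 in ependymal cells (Hmgb2, lower, without FGF1 replicate 36) and 5 to 10 in all cells. Leaving 1 mouse out of the Day 5 nuclei keeps a single mouse in a group, so calls of those fits are not given. Mean shares of cells with mitotic RNA ran from 5.43 to 7.56% (FGF1) and 0.285 to 0.371% (vehicle) in OPC, 0.337 to 3.34% and 0.183 to 0.683% in microglia, and 0.449 to 0.963% and 0.0524 to 0.0654% in all cells. In Day 1 OPC/COP nuclei they ran from 4.74 to 8.76% and 0 to 2.38%, on Day 5 from 0 to 0.495% and 0 to 5.88%, and in all nuclei from 0.487 to 1.10% (FGF1 Day 1), 0.156 to 0.316% (FGF1 Day 5), 0.862 to 1.70% (vehicle Day 1) and 0.597 to 2.71% (vehicle Day 5).

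With 2 genes as the limit, shares were 0.133% of all vehicle cells, 12.8% (FGF1) and 11.2% (vehicle) of OPC/COP nuclei on Day 1, 3.74% and 10.7% on Day 5, and 3.70% and 6.98% of all nuclei on Day 1, 2.88% and 9.17% on Day 5. With 4 genes all nuclei had 0.348% (FGF1) and 0.196% (vehicle) on Day 1 and 0.0399% and 0.301% on Day 5. Thinned nuclei gave 0.103% and 0.0147% (FGF1 and vehicle, Day 1) and 0.00867% and 0 (Day 5).

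The Day 1 replicate numbers did not pair the mice (correlations of -0.204, -0.118 and 0.426 between same-numbered mice). Mice of the same batch on Day 1 had correlations of -0.428, -0.0296 and -0.563, so the batch numbers did not pair them either. With the replicate block on Day 1, 0 members were called of 1 tested in oligodendrocytes, 23 in neurons and 29 in all nuclei. No member was tested in the other types with that block. OPC/COP sums of nuclei rest on 17 to 202 nuclei per mouse.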
